A study of Mus musculus with 4 samples.

Results

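Transcripts of 10 genes that mark neutrophils were followed in the kidney and heart of septic mice with and without melatonin (MLT). The genes were S100a8 and S100a9, which encode the subunits of calprotectin; Ngp, Camp, Ltf and Mmp8, which encode proteins of the specific granules; Mmp9, which encodes a gelatinase; Retnlg, which encodes a small secreted protein; and Csf3r and Cxcr2, which encode receptors. They were picked by symbol out of 55401 gene identifiers, and each of the 10 was found by its Ensembl identifier with the version dropped.

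Sepsis was induced by cecal ligation puncture (CLP), an operation in which the cecum is tied off and pierced so that gut bacteria reach the abdomen. The RNA-seq data comprised 4 libraries from C57BL/6 mice, 1 each from CLP kidney, CLP + MLT kidney, CLP heart and CLP + MLT heart. The kidney groups were male mice aged 8 weeks, and both were operated on day 15 and had their kidneys taken after 24 h. The CLP + MLT group drank water containing 25 μg/ml melatonin over 14 days. The melatonin stock was dissolved in ethanol, and the drinking water of the CLP group without melatonin is not described in the sources used here. For the hearts, no sex, age, dose or time is given there, and the name of both melatonin groups carries a number, MLT4, that the sources used here do not explain. It is likewise unstated whether RNA of several mice was pooled for a library. All 4 libraries came from operated mice, so a difference between them is one between septic groups, and unoperated mice were not analysed here.

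Neutrophils are short-lived white blood cells that are made in bone marrow and enter infected or injured tissue in large numbers. Their granule proteins are made in waves during maturation, with the proteins of azurophil granules first, those of specific granules next and those of gelatinase granules last. Messenger RNA for most specific granule proteins is abundant in immature marrow cells and low in mature neutrophils, whereas S100a8, S100a9, Csf3r and Cxcr2 continue to be transcribed in mature cells. Calprotectin, the complex of S100A8 and S100A9, fills much of the neutrophil cytosol, binds calcium and withholds zinc and manganese from microbes.

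On GRCm38, S100a8 (ENSMUSG00000056054.9, chr3:90668978-90670035, plus strand) and S100a9 (ENSMUSG00000056071.12, chr3:90692632-90695721, minus strand) are near neighbours. All 4 specific granule genes lie on chromosome 9, with Mmp8 (ENSMUSG00000005800.3) at chr9:7558456-7568485, Camp (ENSMUSG00000038357.10) at chr9:109847379-109849617, Ngp (ENSMUSG00000032484.8) at chr9:110419747-110423012 and Ltf (ENSMUSG00000032496.7) at chr9:111019271-111042767. Mmp9 (ENSMUSG00000017737.2) lies at chr2:164940780-164955850, Retnlg (ENSMUSG00000022651.6) at chr16:48872621-48874496, Csf3r (ENSMUSG00000028859.14) at chr4:126024550-126044440 and Cxcr2 (ENSMUSG00000026180.8) at chr1:74153989-74161246. All 10 are annotated as protein-coding, and the counts are of reads per gene.

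Counts on genes ranged from 15883057 to 22927905 per library, and reads that named no gene made up 65.5% to 72.8% of all reads. Mitochondrial genes took 14.8% (CLP) and 24.2% (CLP + MLT) of counts on genes in kidney, and 31.6% and 36.0% in heart. Levels are given as normalized CPM (counts scaled to a common library size within each tissue), so levels in kidney and heart compare only roughly. The tissues bore out their labels. In the CLP and CLP + MLT kidneys, 7 kidney tubule genes summed to 25701 and 37174 CPM, and 7 cardiomyocyte genes summed to 29991 and 19265 CPM in the hearts. Tubule transcripts were also present in the hearts, where the 7 genes summed to 376 CPM (CLP) and 806 CPM (CLP + MLT). Each group had 1 library, so no difference below has a replicate check. Intervals are 95% intervals that cover counting error only, and a gene was called higher or lower when the CLP + MLT library differed from the CLP library by at least 1.5-fold with an exact binomial p of at most 0.01 on the reads. Such a call compares the libraries, not the treatments. Calls were limited to genes whose counts in a tissue averaged 10 or more.

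In kidney, 3 of the 10 genes, S100a9, Ngp and Ltf, were called lower in the CLP + MLT library and 0 were called higher. The same calls over all 16932 genes tested in kidney gave 7.58% lower and 7.8% higher. In heart, 3 of the 10 genes, S100a9, Ngp and Mmp8, were called lower and 0 were called higher, against 8.78% lower and 7.15% higher among all 15871 genes tested. In each tissue 7 of the 10 passed the filter on low counts; Camp and Cxcr2 missed it in both, Mmp9 missed it in kidney and Ltf in heart. Ngp and Ltf in kidney passed it only through the CLP library, since their CLP + MLT counts were below the minimum. As a median, the log2 ratio (CLP + MLT relative to CLP) was −0.72 over the 7 genes tested in kidney and −0.56 over the 7 tested in heart, beside 0.003 and 0.002 over all genes tested. The kidney median rests on Ngp and Ltf, and without them it is −0.11, the value of S100a8. In bulk tissue, fewer neutrophils and less of these transcripts per cell cannot be told apart.

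**Figure D1:**
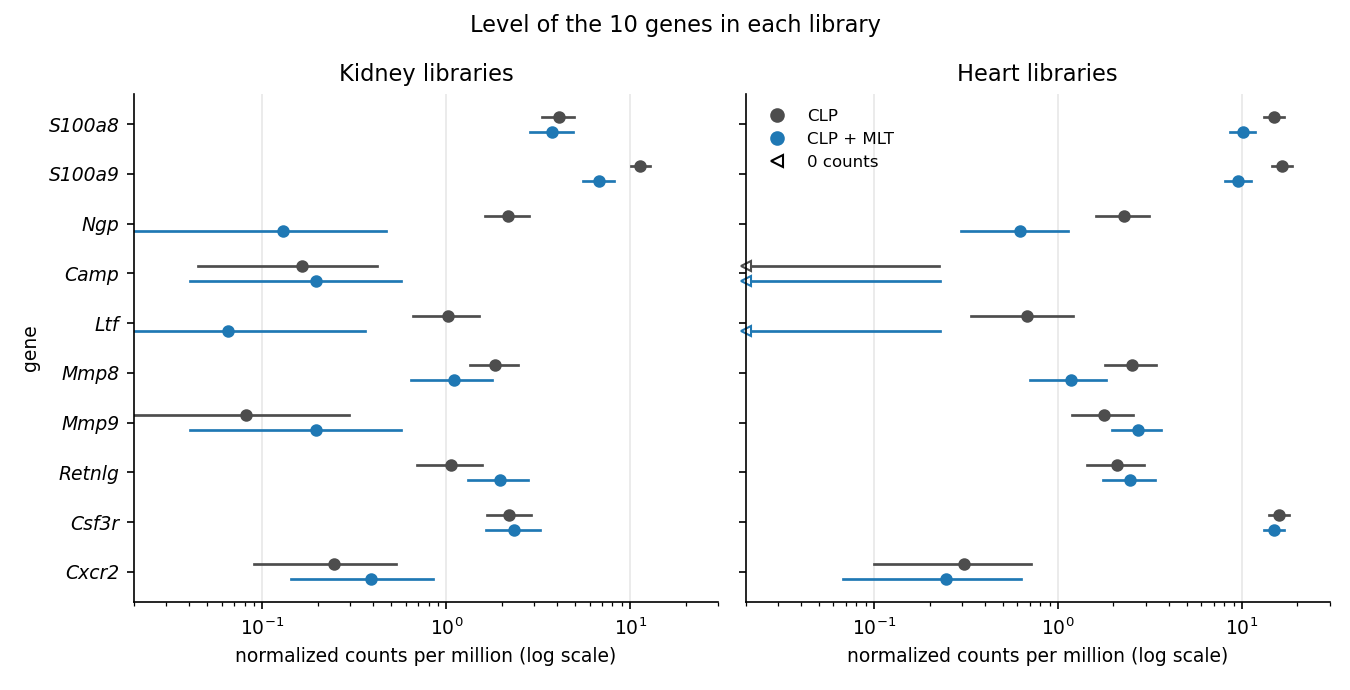
Level of each of the 10 genes in CPM on a log axis, with kidney libraries on the left and heart libraries on the right. Points are single libraries, bars are 95% counting intervals cut at the left edge of the axis, and open triangles mark 0 counts. S100a9 is lower in the CLP + MLT library of both tissues without overlap of the intervals, whereas the intervals of Csf3r overlap in both.

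Calprotectin transcripts were the most abundant of the set per transcript length in all 4 libraries. S100a9 had 278 counts in CLP kidney, 104 in CLP + MLT kidney, 270 in CLP heart and 154 in CLP + MLT heart. It was thus lower in the melatonin library of both tissues, from 11.3 to 6.76 CPM in kidney and from 16.6 to 9.51 CPM in heart. The log2 ratio was −0.74 (−1.09 to −0.42) in kidney and −0.80 (−1.10 to −0.51) in heart, or 1.68-fold and 1.74-fold lower. S100a8, its partner in the complex, had 100 and 58 counts in the CLP and CLP + MLT kidneys and 244 and 164 in the hearts. In kidney its levels, 4.08 and 3.77 CPM, differed by less than the counting error, with a log2 ratio of −0.11 (−0.61 to 0.37). In heart the level went from 15.0 to 10.1 CPM, a log2 ratio of −0.56 (−0.86 to −0.27) that lies below 0 but is 1.48-fold and so was not called.

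The balance of the calprotectin transcripts differed between the tissues. S100a8 made up 26.5% (22.1 to 31.2) of the S100a8 and S100a9 reads in CLP kidney and 35.8% (28.4 to 43.7) in CLP + MLT kidney. In the hearts the share was 47.5% (43.1 to 51.9) and 51.6% (45.9 to 57.2). The intervals of the kidneys overlapped each other and so did those of the hearts, while the kidney interval lay below the heart interval both in CLP and in CLP + MLT. With 1 library per group, a difference between tissues cannot be told apart from one between libraries. Summed over both genes, calprotectin reads had a log2 ratio of −0.55 (−0.82 to −0.28) in kidney and −0.68 (−0.89 to −0.48) in heart.

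Among the specific granule genes, Ngp and Ltf were called lower in kidney, and Ngp and Mmp8 in heart. Ngp, which encodes a cathelicidin-like granule protein of marrow neutrophils, had 53 counts in CLP kidney and 2 in CLP + MLT kidney, and 37 and 10 in the CLP and CLP + MLT hearts. The level was 2.16 and 0.130 CPM in the kidneys and 2.27 and 0.618 CPM in the hearts, so the CLP libraries of kidney and heart were close to each other and the CLP + MLT libraries lower. The log2 ratio was −3.82 (−7.14 to −2.13) in kidney and −1.83 (−3.05 to −0.84) in heart. Ltf, which encodes the iron-binding protein lactoferrin, had 25 counts in CLP kidney and 1 in CLP + MLT kidney, a log2 ratio of −3.54 (−9.33 to −1.36). In heart it had 11 counts in CLP and 0 in CLP + MLT, which is at least 3.64-fold lower when a floor of 3 counts stands for the CLP + MLT library. With the counting error of both libraries taken in, the upper end of the log2 interval was −1.32. Its mean in heart was below the minimum for a call.

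Mmp8, which encodes neutrophil collagenase, had 45 and 17 counts in the CLP and CLP + MLT kidneys and 41 and 19 in the hearts. In kidney the levels of 1.83 and 1.10 CPM gave a log2 ratio of −0.72 (−1.63 to 0.10), whose interval includes 0. In heart the levels of 2.52 and 1.17 CPM gave −1.08 (−1.97 to −0.28), 2.11-fold lower and called. Camp, which encodes the cathelicidin precursor, was too low to compare. It had 4 and 3 counts in the kidneys, and 0 in both hearts, where 3 counts would correspond to 0.184 CPM (CLP) and 0.185 CPM (CLP + MLT). The specific granule genes together had 127 counts in CLP kidney, 23 in CLP + MLT kidney, 89 in CLP heart and 29 in CLP + MLT heart. That sum was 3.42-fold lower in kidney, log2 −1.78 (−2.50 to −1.14), and 3.01-fold lower in heart, log2 −1.59 (−2.27 to −0.99). The kidney value rests largely on Ngp and Ltf, which passed the filter there only through the CLP library.

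The DNA just upstream of the genes called in either tissue is given with that of S100a8, the partner of S100a9, and of Csf3r, which were not called, because marrow factors of the C/EBP family and PU.1 are known to control granule and receptor genes. Each run is the 140 bases that end at the base before the most upstream annotated transcript start, from RefSeq on GRCm38.p6, written 5′ to 3′ on the strand of the gene. Capitals mark matches, on either strand, to TTNNGNAA, a form of the C/EBP site, and to GAGGAA, the core bound by PU.1 and other ETS factors.
S100a8 (chr3:90668838-90668977, plus strand): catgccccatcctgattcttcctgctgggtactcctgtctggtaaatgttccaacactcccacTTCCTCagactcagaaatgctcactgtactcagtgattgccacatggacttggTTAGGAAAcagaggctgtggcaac
S100a9 (chr3:90695722-90695861, minus strand): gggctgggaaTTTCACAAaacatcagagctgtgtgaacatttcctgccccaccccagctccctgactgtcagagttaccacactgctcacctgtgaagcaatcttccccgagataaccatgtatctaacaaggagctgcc
Ngp (chr9:110419607-110419746, plus strand): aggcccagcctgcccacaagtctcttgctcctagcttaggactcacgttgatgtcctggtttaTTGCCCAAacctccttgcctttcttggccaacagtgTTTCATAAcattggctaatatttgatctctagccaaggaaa
Ltf (chr9:111019131-111019270, plus strand): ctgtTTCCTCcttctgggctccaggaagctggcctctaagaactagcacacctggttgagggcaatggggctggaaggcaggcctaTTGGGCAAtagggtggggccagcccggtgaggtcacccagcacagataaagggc
Mmp8 (chr9:7558289-7558428, plus strand): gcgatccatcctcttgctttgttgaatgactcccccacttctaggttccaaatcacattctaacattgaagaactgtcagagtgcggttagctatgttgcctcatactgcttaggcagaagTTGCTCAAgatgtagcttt
Csf3r (chr4:126024410-126024549, plus strand): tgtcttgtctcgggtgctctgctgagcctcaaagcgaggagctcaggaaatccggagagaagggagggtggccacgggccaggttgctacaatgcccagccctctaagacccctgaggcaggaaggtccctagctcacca
In the runs shown, S100a8 and Ltf held a match to each motif, Ngp held 2 matches to TTNNGNAA, S100a9 and Mmp8 held 1 each, and Csf3r held none. Of the genes not printed, Cxcr2, which was not called, held a match to GAGGAA in its run, and the specific granule gene Camp and Retnlg held none. Over the 250 bases before the RefSeq start, 6 of the 9 genes of the set in the promoter table held TTNNGNAA and 5 of 9 held GAGGAA, while 36.8% and 23.3% of all 32817 promoters of that length did. In that longer window Csf3r held a match to GAGGAA and Camp held none to either motif. The motifs can overlap each other and did not in the runs shown. A match describes the letters only, and binding was not measured.

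The remaining genes of the set were not called in either direction. Mmp9, which encodes gelatinase B, had 2 and 3 counts in the CLP and CLP + MLT kidneys, too few to compare, and 29 and 44 in the hearts. Its heart levels of 1.78 and 2.72 CPM gave a log2 ratio of 0.60 (−0.10 to 1.34). Retnlg, which encodes a resistin-like protein of neutrophils, had 26 and 30 counts in the kidneys and 34 and 40 in the hearts. The log2 ratio was 0.86 (0.07 to 1.69) in kidney, from 1.06 to 1.95 CPM, and 0.24 (−0.45 to 0.95) in heart. The kidney value of Retnlg did not reach the limit on p. The CLP + MLT library thus had the higher level for Retnlg in both tissues and for Mmp9 in heart, within the limits of a call.

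For both receptor transcripts the interval of the log2 ratio included 0 in kidney and in heart. Csf3r, the receptor for the growth factor G-CSF, had 54 and 36 counts in the CLP and CLP + MLT kidneys, which is 2.20 and 2.34 CPM, a log2 ratio of 0.09 (−0.56 to 0.72). Its sign in kidney flipped to −0.11 when libraries were scaled by their size only. In heart Csf3r had 260 and 243 counts, or 16.0 and 15.0 CPM, and its log2 ratio of −0.09 (−0.35 to 0.17) had the narrowest interval of the set. Cxcr2, the receptor for CXC chemokines that draw neutrophils into tissue, had 6 and 6 counts in the kidneys and 5 and 4 in the hearts. These counts are too low for a comparison, with log2 intervals of −1.23 to 2.58 in kidney and −2.64 to 1.90 in heart.

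**Figure D2:**
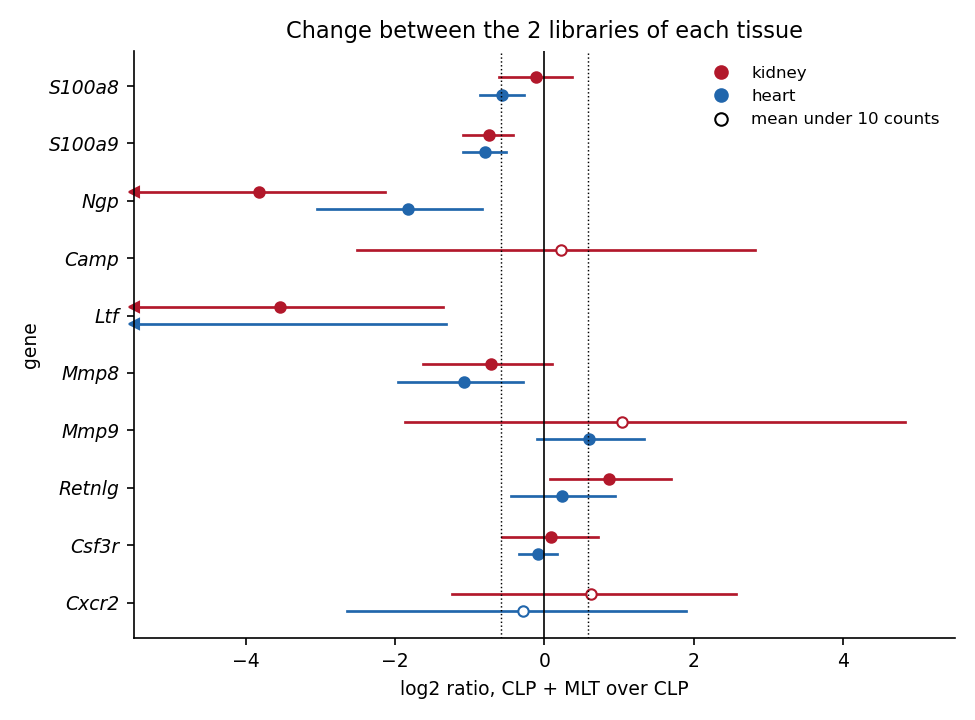
Log2 ratio of CLP + MLT over CLP for each gene, with 1 value per tissue, red for kidney and blue for heart. Bars are 95% counting intervals, triangles mark intervals that run past the left edge, open points are genes with a mean under 10 counts, and dotted lines mark 1.5-fold. Ngp and Ltf lie farthest to the left, Retnlg and Mmp9 lie to the right of 0, and for Ltf in heart the bar alone is drawn because the CLP + MLT count was 0.

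The make-up of the set within a library does not depend on how libraries are scaled. Specific granule reads were 67.9% (60.7 to 74.5) of specific granule plus receptor reads in CLP kidney and 35.4% (23.9 to 48.2) in CLP + MLT kidney. The share was 25.1% (20.7 to 30) in CLP heart and 10.5% (7.15 to 14.7) in CLP + MLT heart. In both tissues the intervals of the CLP and CLP + MLT libraries did not overlap. In kidney much of that shift came from Ngp (53 and 2 counts) and Ltf (25 and 1). Both passed the filter only through the CLP library. Mmp8 alone, at 45 and 17 counts in the kidneys, had a log2 interval that included 0. The ratio of specific granule to receptor reads went from 2.12 to 0.548 in kidney, a log2 change of −1.94 (−2.88 to −1.04), and from 0.336 to 0.117 in heart, −1.51 (−2.22 to −0.84). Calprotectin reads were likewise lower relative to receptor reads, with log2 changes of −0.71 (−1.36 to −0.04) in kidney and −0.59 (−0.92 to −0.26) in heart. Granule reads were also lower relative to calprotectin reads, by −1.24 (−2.00 to −0.53) in kidney and −0.92 (−1.62 to −0.27) in heart on the log2 scale.

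**Figure D3:**
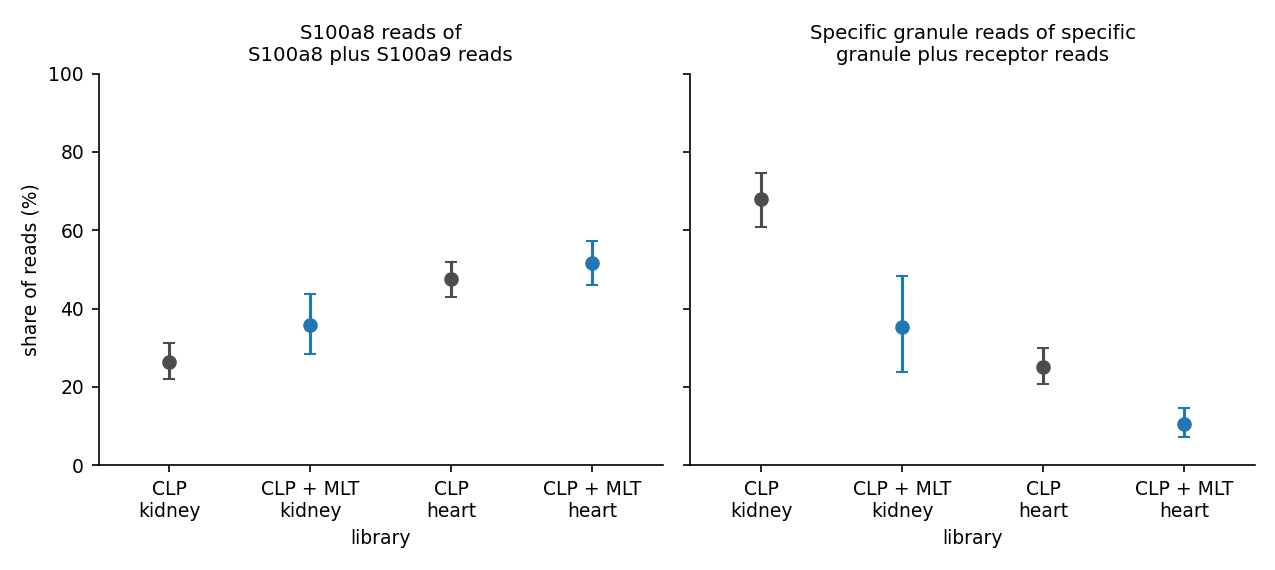
Percent of reads within each library for S100a8 among calprotectin reads and for specific granule genes among specific granule plus receptor reads. Points are single libraries and bars are exact 95% binomial intervals. The specific granule share is lower in the CLP + MLT library of both tissues, at 35.4% against 67.9% in kidney and 10.5% against 25.1% in heart. Ngp and Ltf carry much of the kidney difference.

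On the RPKM scale, which divides a level by the length of the exons, S100a9 came first in every library, at 21.7 and 12.9 in the CLP and CLP + MLT kidneys and 31.7 and 18.2 in the hearts. S100a8 came next, at 5.87 and 5.43 RPKM in the kidneys and 21.6 and 14.6 in the hearts, and its interval overlapped that of S100a9 only in CLP + MLT heart and that of Retnlg only in CLP + MLT kidney. Ngp moved from the fourth place in CLP kidney, at 1.77 RPKM, to the eighth in CLP + MLT kidney, at 0.106, and held the fifth place in CLP heart, at 1.86, and the sixth in CLP + MLT heart, at 0.505. Its interval in CLP + MLT kidney, from 2 counts, overlapped those of its neighbours in the order, as it did in CLP + MLT heart, and in CLP heart it overlapped that of Mmp8, so these places are not resolved. Csf3r stood at 0.610 and 0.648 RPKM in the kidneys and at 4.42 and 4.16 in the hearts. The intervals of Ngp and Retnlg in CLP kidney, at 1.77 and 1.79 RPKM, overlapped, so their order there is not resolved.

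Relative to library size, the 10 genes summed to 24.2 and 16.9 CPM in the CLP and CLP + MLT kidneys and to 57.1 and 41.9 CPM in the hearts. The sum was lower in the CLP + MLT library of both tissues, with log2 ratios of −0.52 (−0.73 to −0.30) and −0.45 (−0.59 to −0.30). S100a8 and S100a9 carried 46.9% to 63.7% of these reads. Without them the log2 ratio was −0.46 (−0.82 to −0.11) in kidney and −0.20 (−0.41 to 0.01) in heart. In kidney, 5 of the 10 genes had a log2 ratio above 0 and 5 below. The kidney sum holds the genes called lower, S100a9 (278 and 104 counts), Ngp (53 and 2) and Ltf (25 and 1). No sum without these was taken, so the kidney sum need not describe the other genes of the set. Receptor reads, almost all of them from Csf3r, made up 28.5% and 36.4% of the set in the CLP and CLP + MLT hearts. Csf3r stood at 16.0 CPM in CLP heart and 2.20 CPM in CLP kidney, whereas Cxcr2 had 5 and 6 counts there. Which cells the Csf3r reads in heart came from was not tested. The ratios to receptor reads in heart thus rest almost wholly on Csf3r and need not describe neutrophils alone.

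The levels in heart were set beside the amount that kidney tissue could add, given the tubule transcripts found in the heart libraries. The tubule genes stood in heart at 0.502% to 3.87% of their kidney level in CLP and at 0.964% to 6.34% in CLP + MLT. At the highest of these shares, kidney tissue would account for 2.89% of the S100a9 level in CLP heart and 4.13% in CLP + MLT heart. For the genes of the set with counts in heart, the share was at most 6.37% (Ltf) in CLP and at most 9.17% (Cxcr2) in CLP + MLT.

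Other genes tied to neutrophils, named other neutrophil genes below, were called in both directions. Their lists also hold ligands, calprotectin receptors and gelatinase inhibitors, and are not limited to transcripts of neutrophils. Of 61 matched genes on 9 lists, 34 were tested in kidney, of which 9 were called higher and 7 lower, with a median log2 ratio of 0.12. All genes tested in kidney gave 7.8% higher and 7.58% lower. In heart 33 were tested, of which 3 were called higher and 8 lower, with a median of −0.22. All genes tested in heart gave 7.15% higher and 8.78% lower. Azurophil granule genes were at or near 0, with Mpo (myeloperoxidase), Ctsg and Ms4a3 at 0 in all 4 libraries and Prtn3 (proteinase 3) at 6, 4, 0 and 1 counts. Ly6g, the surface antigen by which mouse neutrophils are defined, was also at 0 counts in all 4, as were the chemokine receptor Cxcr1 and the granule gene regulator Cebpe. None of the 5 stefin A genes, protease inhibitors of myeloid cells, reached the minimum count in either tissue. Reads that did not align to a single place were 23.6% (CLP kidney) to 38.6% (CLP heart) of all reads and were not counted on genes. A count of 0 therefore need not mean that a transcript was absent.

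Among other granule proteins, 0 of 4 tested were called higher in either tissue, 2 of 4 were called lower in kidney and 1 of 4 in heart. Lcn2, which encodes the iron-siderophore trap NGAL and is also made by injured epithelium, had 11346 and 1600 counts in the CLP and CLP + MLT kidneys and 3224 and 372 in the hearts. Its log2 ratio was −2.15 (−2.23 to −2.08) in kidney and −3.10 (−3.26 to −2.95) in heart. Hp (haptoglobin), made chiefly by liver, had 135 and 40 counts in the kidneys, log2 −1.08 (−1.63 to −0.56), and was not called in heart, with 319 and 261. Of 4 transcripts listed as liver markers, Serpina1a was called higher in kidney, from 84.4 to 190.2 CPM. Alb (albumin) and Ttr had log2 ratios of −0.01 and 0.06 there. In heart Serpina1a was called higher (1.70), from 1.35 to 4.45 CPM, and Alb lower (−0.98). Serpina1a and Ttr stood far higher in kidney than in heart, with Ttr at 49.3 and 51.5 CPM against 1.78 and 1.48. These 2 genes thus need not mark liver here. The tubule genes were also higher in the CLP + MLT heart, at 806 CPM against 376, and whether kidney tissue added to Serpina1a there was not tested. Lcn2 and Hp are expressed outside neutrophils, so their levels do not speak for neutrophils alone.

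Most surface and signalling genes were called in neither tissue, and the difference between tissues was not tested. In kidney, 2 of 9 tested were called higher and 0 lower: the integrin subunits Itgam, with 192 and 210 counts (log2 0.80, 0.51 to 1.09), and Itgb2, with 89 and 98 (0.81, 0.38 to 1.24). In heart, 0 of 10 were called higher and 3 lower. The formyl peptide receptor Fpr2 had 137 and 71 counts in the hearts (−0.93, −1.37 to −0.52). The C-type lectin Clec4d had 87 and 24 (−1.83, −2.56 to −1.18), and the interleukin 1 decoy receptor Il1r2 had 23 and 5 (−2.09, −3.94 to −0.76). Il1r2 passed the filter only through the CLP library. In kidney Clec4d had 17 and 8 counts and was not called, and Itgam and Itgb2 were not called in heart (0.06 and 0.35). Itgam and Itgb2 are shared with macrophages and monocytes.

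Genes of the phagocyte NADPH oxidase, the enzyme that makes superoxide in neutrophils and macrophages, were called higher for 4 of 6 in kidney and 1 of 6 in heart, with 0 called lower. Those called in kidney included Cybb (log2 0.85), the catalytic subunit, Ncf4 (1.06), a cytosolic subunit, and Rac2 (1.26), the small GTPase of the complex. Rac2 was also called in heart, with 126 and 347 counts and a log2 ratio of 1.47 (1.17 to 1.78). Among transcription factors, 1 of 4 tested was called higher in each tissue, Spi1, which encodes PU.1, in kidney (0.59) and Cebpa in heart (1.02, from 24 to 49 counts), with 0 lower.

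Ligands of the receptors were tested for 4 genes in kidney and 2 in heart. The Cxcr2 ligands Cxcl1, Cxcl2 and Cxcl5 were called lower in kidney, with 337 and 72, 47 and 6, and 62 and 9 counts in the CLP and CLP + MLT libraries. Their log2 ratios were −1.55 (−1.94 to −1.18), −2.23 (−3.81 to −1.07) and −2.07 (−3.31 to −1.10). In heart Cxcl1 had 37 and 38 counts, log2 0.05 (−0.64 to 0.74), so the kidney pattern was not seen there for this gene. Cxcl5 had 15 and 0 counts in the hearts, at least 4.97-fold lower when a floor of 3 counts stands for the CLP + MLT library, with a mean below the minimum for a call. The upper end of its log2 interval, which takes in the counting error of both libraries, was −1.83. Ppbp, a CXC ligand stored in platelets, was called higher in both tissues, with 3 and 23 counts in kidney (3.37, 1.88 to 5.99) and 39 and 72 in heart (0.89, 0.31 to 1.50). Cxcl2, Cxcl5 and Ppbp in kidney passed the filter only through the library where they were high. Csf3, the ligand of Csf3r, had 1 and 0 counts in the kidneys and 0 and 4 in the hearts, too few to compare.

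Of 3 receptors linked to calprotectin, Tlr4, a sensor of bacterial lipopolysaccharide, was called lower in both tissues, with 64 and 17 counts in kidney (−1.22, −2.11 to −0.45) and 94 and 60 in heart (−0.63, −1.13 to −0.15). Ager, which encodes RAGE, was called higher in kidney, with 100 and 106 counts (0.75, 0.35 to 1.17), and Cd33 lower in heart, with 39 and 9 (−2.05, −3.34 to −1.04), having passed the filter through the CLP library alone. Among the 4 inhibitors of gelatinases, 0 were called higher in either tissue. Timp3 was called lower in kidney at a log2 ratio of −0.59 (−0.63 to −0.56), close to the 1.5-fold limit. In heart, Timp1 was called lower, with 199 and 46 counts (−2.09, −2.60 to −1.63), and Reck, a membrane-bound inhibitor, with 108 and 66 (−0.70, −1.16 to −0.25).

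Markers of other blood cells were mostly not called in kidney, apart from Ptprc, Csf1r and a few lymphocyte genes. Ptprc (CD45), carried by all leukocytes, had 147 and 179 counts in the kidneys, a log2 ratio of 0.95 (0.63 to 1.28) and called higher, and 239 and 265 in the hearts, 0.16 (−0.10 to 0.42). The 10 macrophage and monocyte genes summed to 116 and 181 CPM in the kidneys, log2 0.64 (0.56 to 0.71), and to 216 and 184 CPM in the hearts, −0.22 (−0.30 to −0.15). Of these, 1 of 9 tested in kidney was called higher and 0 lower. That gene was Csf1r, the receptor for M-CSF, which went from 46.5 to 101.9 CPM and made up most of the difference in the kidney sum, while Cd68 had a log2 ratio of −0.49 and C1qa one of 0.09 there. In heart 2 of 10 were called higher, Adgre1 (1.56) and Ccr2 (1.21), and 2 lower, C1qa (−0.80) and Mrc1 (−0.88). Red blood cell genes, which mark blood left in the tissue, summed to 68.4 and 82.2 CPM in the kidneys and to 257 and 224 CPM in the hearts, and 0 of 5 were called in either tissue. The 4 platelet genes summed to 14.1 and 15.7 CPM in the kidneys and to 18.5 and 19.5 CPM in the hearts. The sum of the neutrophil set was thus lower in CLP + MLT kidney while the levels of Ptprc and Csf1r were higher, and the part of other cells in the result was not tested.

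**Figure D4:**
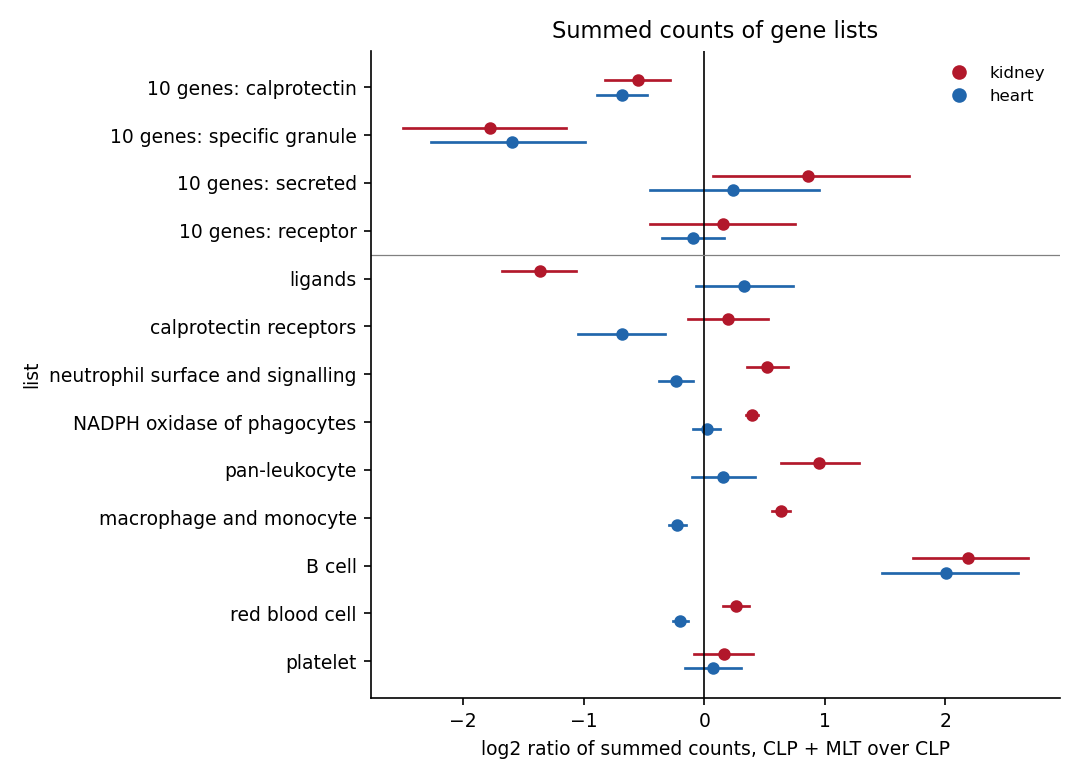
Log2 ratio of CLP + MLT over CLP of summed counts, by tissue, for gene groups within the set, except Mmp9, and for other lists. The other lists are ones tied to neutrophils, among them ligands and the phagocyte NADPH oxidase, and marker lists of leukocytes and other blood cells. Points are 1 value per tissue from single libraries, bars are 95% counting intervals, and the grey line parts the groups of the set from the other lists. The specific granule sum lies at −1.78 in kidney and −1.59 in heart, and the receptor sum lies near 0 in both. The kidney granule value rests largely on Ngp and Ltf, which passed the filter there only through the CLP library. The heart receptor value rests almost wholly on Csf3r.

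Profiles over the 4 libraries were ranked by their Euclidean distance, on centred log2 CPM, from the summed S100a8 and S100a9 profile. Among 12227 protein-coding genes the nearest were Gm45902 (distance 0.147), B4galt2 (0.158), Gm10643 (0.166), Nostrin (0.166) and Smarca1 (0.180). The likeness rests on 4 values per gene, and none of these genes belonged to the neutrophil lists.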

How the data were processed

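RNA was sequenced from 4 libraries, 1 per group. The authors trimmed reads with trim-galore, mapped them to mm10 with HISAT2 2.1.0 and deposited raw counts of reads per gene, for which the submitters' processing notes name HTSeq; the sources used here give no version, strand setting or annotation for it. The 5 totals per file that name no gene entered neither library sizes nor tests. Gene positions and symbols were taken from GENCODE M21 (GRCm38), which matched 55141 of 55401 identifiers with the version dropped, and no other annotated gene overlapped a gene of the set. Of 124 listed genes, 123 were matched.

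TMM factors were computed within each tissue on genes averaging 10 or more counts (edgeR 4.0.16, R 4.3.3). Log2 ratios used a prior count of 0.5. Since 1 library per group gives no dispersion, the limits the study set in edgeR, a 1.5-fold change and a p of at most 0.01, were applied with a two-sided exact binomial test on the reads. Intervals are exact Clopper-Pearson or Poisson intervals, and shares of a single library have exact binomial intervals. PCR copies are not independent molecules, so intervals and the floor of 3 counts (0.122 to 0.195 CPM) cover counting error only. RPKM used the union of exons. Promoter sequences were RefSeq's, and 9 of the 10 genes were in that table.

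The genes, lists and tests were chosen with earlier results of these data known. The text names every gene of the set, the genes of the other neutrophil lists called in either tissue, except 1 whose value is not reported here, and the 5 nearest profiles; lists of other cells and tissues are given by sums and some of their genes. Csf3, Prtn3, Ighm and the genes at 0 were named after their values were seen. Alternatives were other scalings (library size, DESeq2 1.42.0 size factors, upper quartile), no filter or an average of 50 counts or more, a prior count of 5, removal of mitochondrial and haemoglobin genes, the exact test of edgeR with the coefficient of variation assumed to be 0.1, 0.2 or 0.4, a fold of at least 2, and sums without S100a8 and S100a9 or without Mmp9. The procedure was tested on simulated counts that held counting error only and changes larger than 1.5-fold. That test does not check variation between mice or the recovery of changes near 1.5-fold. Python 3.11.15, numpy 2.4.6, pandas 2.3.3, scipy 1.17.1 and matplotlib 3.10.9 were used.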

Additional observations from a re-analysis of the deposited data

Results flagged for a closer look

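Fpr2 and Cyba had log2 ratios of CLP + MLT over CLP of opposite sign in the tissues, with counting intervals that do not include 0 in either. Fpr2, a formyl peptide receptor, had a log2 ratio of 0.70 in kidney, from 45 to 46 counts, and −0.93 in heart, from 137 to 71, a difference of −1.63 for heart minus kidney. Cyba, a subunit of the NADPH oxidase that many cell types express, had 0.36 in kidney, from 6953 to 5603 counts, and −0.39 in heart, from 693 to 527, a difference of −0.74. With 1 library per group, neither difference was tested.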

How the results depend on the processing

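Each group had 1 library, so no library could be left out and variation between mice is unknown. No paired analysis was possible because each group has 1 library. Under the other scalings, the prior count of 5 and the removal of mitochondrial and haemoglobin genes, the same 3 genes of the set were called lower in each tissue. With a mean of at least 50 counts required, 1 gene was called lower in each tissue, S100a9. At an assumed coefficient of variation of 0.1, S100a9 and Ngp were called in heart and all 3 in kidney. At 0.2 the calls were Ngp and Ltf in kidney and 1, Ngp, in heart. At 0.4 they were 1 in kidney, Ngp, and 0 in heart. A fold of at least 2 left Ngp and Ltf in kidney and Ngp and Mmp8 in heart, and without a filter Ltf was also called lower in heart. The log2 ratios of the single genes stayed within their counting intervals in 95 of 95 alternative values, with 1 change of sign, Csf3r in kidney at −0.11 with library size only. The alternatives for single genes reuse the same counts with another scaling or prior. Staying within the counting intervals was thus nearly assured and is no check on the ratios. These intervals are wide for low counts: with a prior count of 5 the log2 ratio in kidney went from −3.82 to −2.66 for Ngp and from −3.54 to −2.01 for Ltf. The log2 ratio of the summed reads ranged from −0.71 to −0.46 in kidney and from −0.50 to −0.20 in heart, where −0.20 is the value without S100a8 and S100a9. For the other neutrophil genes called higher in kidney, the count went from 9 to 2 and 1 at assumed variations of 0.2 and 0.4 and to 3 at a fold of at least 2. Those called lower in kidney went from 7 to 4 with a mean of at least 50, to 4 at 0.2 and to 0 at 0.4. In heart, the count called higher went from 3 to 1, 1 and 0 at 0.1, 0.2 and 0.4, and the count called lower from 8 to 5 and 1 at 0.2 and 0.4 and to 5 at a fold of at least 2. Scaling by library size only moved the split over all genes from 1320 higher and 1284 lower to 727 and 2373 in kidney, where the median log2 ratio became −0.19, and from 1134 and 1394 to 1318 and 1215 in heart. Beyond these, the cause of a changed call was not tested. Apart from S100a8, S100a9 and Csf3r, no gene of the set reached 100 counts in a library, and changes near 1.5-fold were not detectable at that depth.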

Other observations

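Lymphocyte transcripts were few but differed between libraries. The 6 B cell genes summed to 2.08 CPM in CLP kidney and 9.55 CPM in CLP + MLT kidney, a log2 ratio of 2.19 (1.73 to 2.69), and to 2.15 and 8.71 CPM in the hearts, 2.00 (1.48 to 2.60). Ighm, the heavy chain of immunoglobulin M, had 20 and 87 counts in the kidneys and 25 and 115 in the hearts. The 8 T cell and NK cell genes summed to 0.856 and 1.88 CPM in the kidneys and to 2.02 and 0.556 CPM in the hearts.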
